A study of Mus musculus with 11 samples.

Results

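The genes described here are 9 components of the extracellular matrix: the small leucine-rich proteoglycans Bgn (biglycan), Dcn (decorin) and Lum (lumican), the fibulins Fbln1, Fbln2, Fbln5 and Efemp2 (fibulin-4), the microfibril protein Fbn1 (fibrillin-1) and the large hyaluronan-binding proteoglycan Vcan (versican). They were taken by symbol, each as 1 row, out of 48299 genes in the count table of WFU3, a mouse prostate epithelial stem cell line. All 9 were measured in 11 libraries of oligo(dT)-selected mRNA, and 7 of them had enough counts to be tested, among 14346 genes tested in all. Dcn and Lum did not.

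The libraries formed 4 groups of WFU3 cells carrying lentiviral short hairpin RNAs. The shControl group (n = 3) carried control hairpins only: replicate 1 was a line with no number at passage 30, marked puro and neo, and replicates 2 and 3 were control lines 4 and 5 at passage 52. The shMap3k7 group (n = 2) carried a hairpin against Map3k7, the gene of the kinase TAK1, and a control hairpin, in clones numbered 1 (passage 49) and 7 (passage 47). The shChd1 group (n = 2) was control line 4 with a hairpin against the chromatin remodeller gene Chd1, as construct 96526 (passage 52) or 96528 (passage 50). The shDouble group (n = 4) had those 2 constructs in Map3k7 clone 1 (replicates 1 and 2, passage 49) and clone 7 (replicates 3 and 4, passage 48). All libraries but shControl replicate 1 are labelled with GFP for the first vector and puro for the second. Lines 4 and 5 and the Map3k7 lines were grown from isolated clones, so the 6 libraries with a Map3k7 hairpin come from 2 clones and the 5 others from 3 control lines. Nothing in the labels says that libraries of the same line came from separate cultures. The p-values measure the spread between libraries, which in shControl and shMap3k7 lies between lines and within a line may be technical. The fit by group takes the 4 shDouble libraries as replicates, though they come from 2 clones.

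Total counts ran from 14132371 to 23163709 per library. Levels are given as CPM (counts scaled to library size), with library sizes adjusted by the trimmed mean of M-values. Map3k7 measured 124 to 140 CPM in shControl and 39.3 to 43.0 CPM in the 6 Map3k7-clone libraries. Chd1 measured 195 to 212 CPM in shControl and 145 and 150 CPM in shChd1. It measured 162 to 198 CPM in shDouble, overlapping shControl, and 221 and 238 CPM in shMap3k7. The log2 difference of Chd1 from shControl was -0.46 in shChd1 (edgeR adjusted p = 0.0470) and -0.13 in shDouble (edgeR adjusted p = 0.291). Both were smaller than that of Map3k7, -1.69 in shMap3k7, and the value in shDouble did not pass 0.05. The epithelial markers Epcam and Cdh1 were present in every library. The basal keratin gene Krt5 stood at 48.9 CPM in shControl replicate 1 and at no more than 1.93 CPM in any other library.

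As background, biglycan, decorin and lumican are secreted proteins with a core of leucine-rich repeats that bind collagen fibrils, and biglycan and decorin carry chondroitin or dermatan sulfate chains. Fibrillin-1 polymerises into microfibrils, the scaffold on which elastin is laid down, and fibulin-4 and fibulin-5 are needed for elastic fibre assembly. Fibulin-1 and fibulin-2 bind fibronectin, basement membrane proteins and versican. In the prostate these proteins are made mainly by stromal cells, and versican and decorin are well-studied components of the tumour stroma.

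Of the 9 genes 7 matched a gene start in the RefSeq promoter table (GRCm38.p6), with 11 starts in all. The 250 bases before the first listed start are shown for Bgn and Fbln1, which were nearly absent from the Map3k7 clones, and for Fbln5 and Vcan, which stayed detectable there. Capitals mark matches to the SP/KLF box, GGGCGG on either strand.
Bgn, chrX:73483351-73483600, plus strand: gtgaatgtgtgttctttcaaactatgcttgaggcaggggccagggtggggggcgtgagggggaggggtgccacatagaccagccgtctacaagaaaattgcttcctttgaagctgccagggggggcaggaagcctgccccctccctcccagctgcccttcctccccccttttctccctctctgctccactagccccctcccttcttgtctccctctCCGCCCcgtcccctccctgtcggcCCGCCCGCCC
Fbln1, chr15:85205699-85205948, plus strand: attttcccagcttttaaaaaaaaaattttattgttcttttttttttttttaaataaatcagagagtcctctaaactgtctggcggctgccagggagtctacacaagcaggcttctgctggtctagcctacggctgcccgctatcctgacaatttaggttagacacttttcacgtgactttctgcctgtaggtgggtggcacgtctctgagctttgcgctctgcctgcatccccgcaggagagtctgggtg
Fbln5, chr12:101819120-101819369, minus strand: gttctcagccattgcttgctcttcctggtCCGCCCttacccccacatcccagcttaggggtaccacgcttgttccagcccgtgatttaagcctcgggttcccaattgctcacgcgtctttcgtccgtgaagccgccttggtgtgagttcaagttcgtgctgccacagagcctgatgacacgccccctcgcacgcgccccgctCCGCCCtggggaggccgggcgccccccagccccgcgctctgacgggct
Vcan, chr13:89742513-89742762, minus strand: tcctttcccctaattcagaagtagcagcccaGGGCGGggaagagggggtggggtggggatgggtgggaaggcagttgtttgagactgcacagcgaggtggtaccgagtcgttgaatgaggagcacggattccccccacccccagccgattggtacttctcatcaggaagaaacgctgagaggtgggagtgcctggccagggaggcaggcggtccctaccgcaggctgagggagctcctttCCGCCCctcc
The SP/KLF box occurred 3 times in the Bgn window, where 2 of the matches overlap, 2 times each in those of Fbln5 and Vcan and 0 times in that of Fbln1, against 32.7% of 32851 promoter windows of the same length that held at least 1. The other motifs searched on both strands were TGANTCA for AP-1 (in 6.75% of all windows), CAGGTG for the E-box bound by ZEB factors (17.2%), GGAATG for TEAD factors (12.6%), TATAAA for the TATA box (12.4%) and the NF-kB consensus by its name (7.25%). None of the first 4 of these matched any of the 11 windows, and NF-kB matched 1, that before the second start of Fbln1, where it did not overlap the SP/KLF box. G and C made up 64.4% of the window in Bgn, 65.2% in Fbln5, 62.4% in Vcan and 46.4% in Fbln1. The median over all windows was 52.4%, and the shares of all windows with a motif were not matched for this. A match here describes letters only.

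The members differed widely in level. Per kilobase of merged exon (GENCODE M21), Fbln2 was the most abundant in shControl, at a mean of 172 CPM per kilobase and 142 to 230 over the 3 libraries, apart from all others. Vcan (18.5 to 48.3), Fbn1 (16.2 to 34.6) and Efemp2 (17.8 to 33.8 CPM per kilobase) followed with overlapping ranges. Fbln1 (0.0378 to 17.2), Bgn (0.784 to 8.70) and Fbln5 (2.40 to 5.45 CPM per kilobase) were lower and overlapped each other. Dcn ranged from 0 to 1.41 CPM per kilobase, and Lum had 0 counts in all 11 libraries. A count of 3 in a library, the limit that a count of 0 allows, corresponded to 0.133 to 0.217 CPM. It covers counting error only, since reads carried no molecular identifiers.

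**Figure D1:**
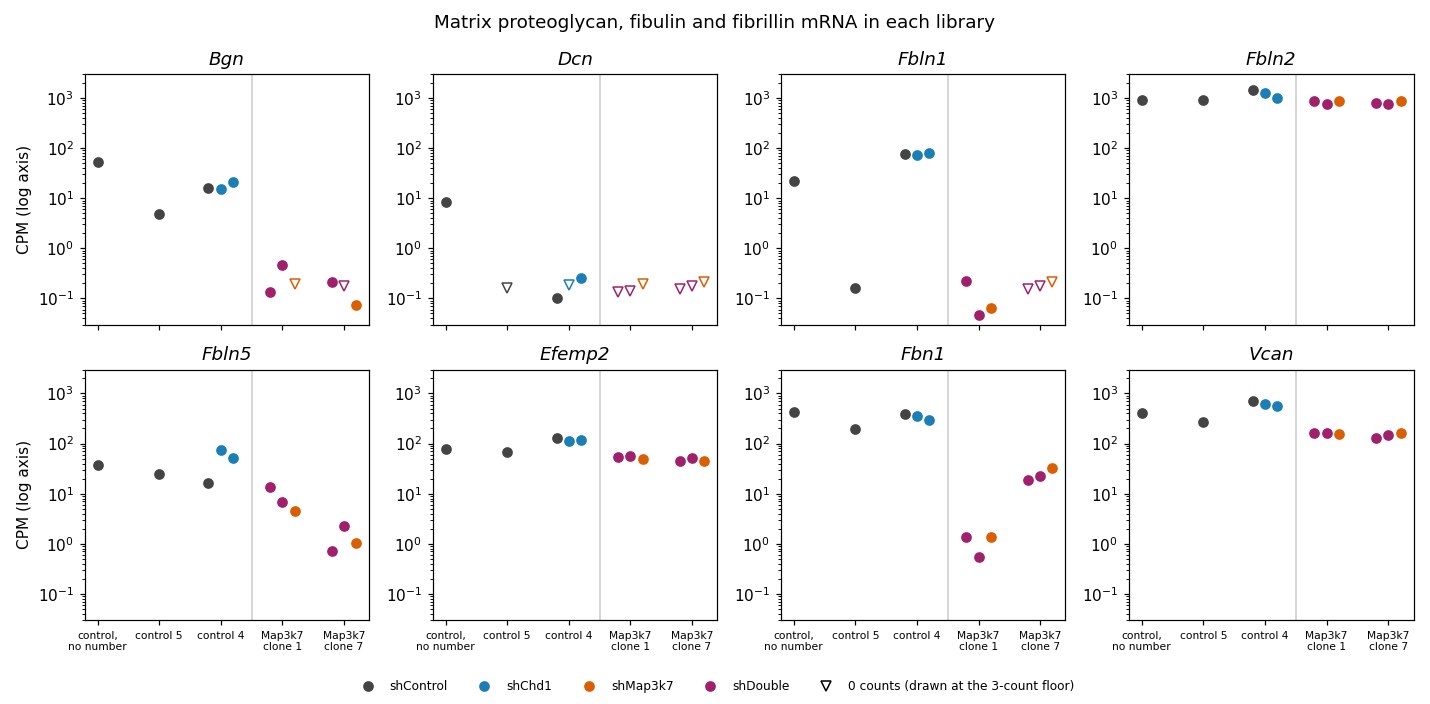
Level of 8 members (all but Lum, which had no counts) in each library, as CPM on a log axis, with libraries placed by line and coloured by group. Open triangles are libraries with 0 counts, drawn at the level of 3 counts. Bgn, Fbn1 and Fbln5 lie lower in every Map3k7-clone library than in any other, Fbln1 in control 5 lies at the level of the clones, and Fbn1 and Fbln5 separate clone 1 from clone 7 in opposite directions.

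Across the series the members were lower in the Map3k7 clones, but by very unequal amounts, and the control lines differed too. Bgn was nearly absent from the clones. Fbn1 was 20.1-fold lower in shMap3k7 and 31.7-fold lower in shDouble than in shControl, Fbln5 9.28-fold and 4.48-fold, Vcan 2.92-fold and 3.03-fold, Efemp2 1.91-fold and 1.76-fold, and Fbln2 1.27-fold and 1.39-fold. The members were chosen by family with the measured differences between Map3k7 clones and control hairpins already known, those of Fbln1 and Bgn among them. The values for the Map3k7 hairpin are therefore a description, with no test of a member, and the 2 comparisons with shControl share its 3 libraries.

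Bgn, on chromosome X (73483602 to 73495933), encodes biglycan. It measured 53.1, 15.9 and 4.78 CPM in shControl replicates 1, 2 and 3, and 15.2 and 21.2 CPM in shChd1. It measured 0 and 0.0724 CPM in shMap3k7 and 0.133, 0.459, 0.208 and 0 CPM in shDouble. Every Map3k7-clone library lay below every other, and the shControl libraries differed among themselves 11.1-fold. The shDouble libraries held 17 counts against 1244 in shControl, a ratio of 110 with a 95% counting interval of 68.5 to 190. That interval treats the pooled counts as 1 draw and leaves out the spread between lines. Of the shControl counts 850 came from replicate 1 and of the shDouble counts 10 from replicate 2. The fitted log2 difference of -6.83 was -5.59 without the former library and -7.62 without the latter.

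Dcn, on chromosome 10 (97479609 to 97518143), encodes decorin, and had more than 4 counts in 1 library only. It had 132 counts (8.24 CPM) in shControl replicate 1, 2 and 0 counts in replicates 2 and 3, 0 and 4 counts in shChd1, and 0 counts in all 6 Map3k7-clone libraries. Pooled over the group, shControl was at least 24.4-fold higher than shMap3k7 and at least 67.2-fold higher than shDouble, computed from 3 counts over the lower group. Those bounds rest on shControl replicate 1 alone. Lum, the neighbouring gene on chromosome 10 (97565128 to 97572703), was not detected.

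Fbln1, on chromosome 15 (85205949 to 85286535), encodes fibulin-1. It measured 22.3, 75.1 and 0.165 CPM in shControl replicates 1, 2 and 3, the last from 3 counts, and 72.5 and 78.7 CPM in shChd1. In the Map3k7 clones it measured 0.0650 and 0 CPM in shMap3k7 and 0.221, 0.0459, 0 and 0 CPM in shDouble. Control line 5 thus overlapped the Map3k7 clones, and all 3 libraries of line 4 were alike. The pooled counts were 6 in shDouble and 1808 in shControl, a ratio of 453 (counting interval 208 to 1237) that does not hold for line 5. The interval again leaves out the spread between lines. The fitted log2 difference of -8.65 was -7.10 without shControl replicate 2. It was -10.38 without shDouble replicate 1, which leaves 1 count in shDouble.

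Fbln2, on chromosome 6 (91212455 to 91272540), encodes fibulin-2. It measured 926, 1464 and 903 CPM in shControl, 1264 and 1012 in shChd1, 870 and 862 in shMap3k7, and 873, 748, 798 and 746 in shDouble. The lowest control and the highest clone library differed by less than the control libraries did among themselves. The log2 difference from shControl was -0.34 ± 0.19 (SE) in shMap3k7 and -0.47 ± 0.16 in shDouble. Without shControl replicate 2 the shDouble value was -0.21.

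Fbln5, on chromosome 12 (101746565 to 101819055), encodes fibulin-5. It measured 37.6, 16.6 and 24.6 CPM in shControl, 73.4 and 51.7 CPM in shChd1, 4.55 and 1.01 CPM in shMap3k7, and 13.4, 6.70, 0.729 and 2.26 CPM in shDouble. The highest clone library, of clone 1, came close to the lowest control without overlapping it. The log2 difference from shControl was -3.21 ± 1.00 in shMap3k7 and -2.16 ± 0.71 in shDouble. The former was -4.69 without shMap3k7 replicate 1 and -2.53 without replicate 2, and the latter was -3.00 without shDouble replicate 1.

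Efemp2, on chromosome 19 (5473954 to 5482517), encodes fibulin-4. It measured 76.6, 128 and 67.5 CPM in shControl, 113 and 116 in shChd1, 49.4 and 45.6 in shMap3k7, and 54.1, 55.6, 44.9 and 51.9 in shDouble. Its groups with and without a Map3k7 hairpin did not overlap, with log2 differences from shControl of -0.93 ± 0.23 in shMap3k7 and -0.81 ± 0.19 in shDouble (-0.48 without shControl replicate 2). The median log2 difference of the 455 other tested genes of chromosome 19 was 0.37 in shMap3k7, so Efemp2 moved against its chromosome. For the chromosomes of the other tested members that median lay between -0.02 and 0.02.

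Fbn1, on chromosome 2 (125300594 to 125507993), encodes fibrillin-1. It measured 419, 386 and 196 CPM in shControl, 351 and 302 in shChd1, 1.37 and 32.1 in shMap3k7, and 1.37, 0.551, 19.0 and 22.0 in shDouble. Every clone library lay below every other, with log2 differences from shControl of -4.33 ± 1.44 in shMap3k7 and -4.98 ± 1.10 in shDouble. The former was -7.93 without shMap3k7 replicate 2 and -3.38 without replicate 1, and the latter was -5.61 without shDouble replicate 4. Fbn1 was the only member with estimated counts that were not whole, in 6 libraries, which RSEM gives where it divides reads between features.

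Vcan, on chromosome 13 (89655312 to 89742509), encodes versican. It measured 415, 698 and 267 CPM in shControl, 604 and 568 in shChd1, 155 and 160 in shMap3k7, and 166, 160, 132 and 151 in shDouble. The 6 clone libraries were close to each other and below all others, with log2 differences from shControl of -1.55 ± 0.31 in shMap3k7 and -1.60 ± 0.25 in shDouble.

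Of the 7 tested members, 4 were called lower in shMap3k7 and 0 higher at an adjusted p under 0.05 in edgeR's quasi-likelihood test, where 11.9% of all tested genes were called either way, 4.86% higher and 7.08% lower. In shDouble 6 were called lower and 0 higher, against 23.8% of all genes either way, 10.2% higher and 13.6% lower. The choice of members used these comparisons, so nothing is read from the counts. Their median log2 difference was -3.21 in shMap3k7 and -2.16 in shDouble, beside -0.01 and -0.00152 over all tested genes. In 6 of the 7, all but Fbln1, every Map3k7-clone library lay below every other library, as did 12.8% of all tested genes. The count of 4 fell to 0 without shMap3k7 replicate 1, without shMap3k7 replicate 2 or with only the 2 groups compared, and to 1 with counts summed per line, and was 6 with DESeq2 or without a filter on low counts. The count of 6 fell to 1 with counts summed per line, and was 6 with DESeq2 and 7 without a filter, which adds Dcn to the genes tested.

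**Figure D2:**
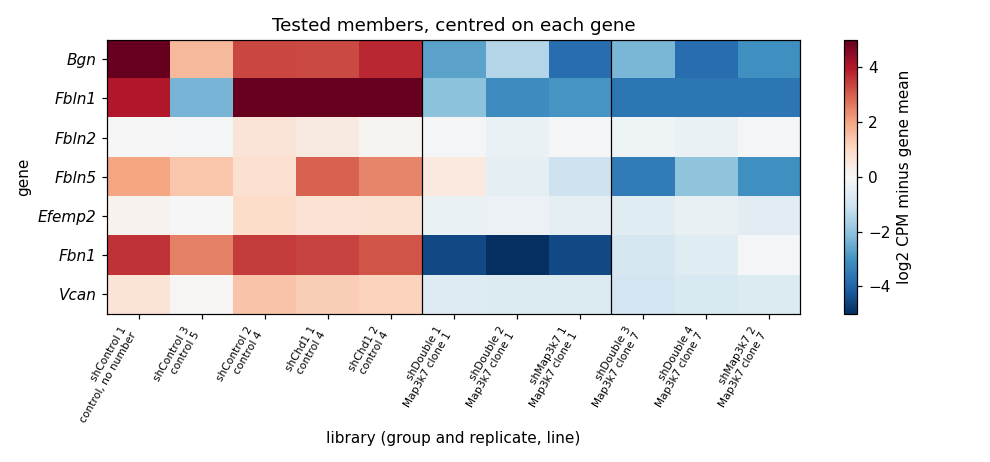
Log2 CPM of the 7 tested members, each centred on its own mean over the 11 libraries, with libraries in columns ordered by line. Red is above and blue below the gene's mean, and the colour scale ends at 5 on either side. Control 5 (shControl 3) is paler than the other columns without a Map3k7 hairpin for Bgn, Fbn1, Efemp2 and Vcan and is blue for Fbln1.

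The control lines were not alike. The median over the 7 tested members of centred log2 CPM was 1.99 and 1.43 in shControl replicates 1 and 2 and 2.95 and 2.45 in shChd1, but 0.0471 in shControl replicate 3. It lay between -1.03 and -0.64 in the Map3k7-clone libraries. This median is the value of a single gene, Vcan in shControl replicate 2 but Fbln5 in both shChd1 libraries. Fbln2, Fbn1, Efemp2 and Vcan were lower in both shChd1 libraries than in their parent, line 4. The higher median in shChd1 therefore does not describe the set. Line 5 was the lowest control for Bgn, Fbln1, Fbln2, Fbn1, Efemp2 and Vcan, and line 4 the lowest for Fbln5. Between the highest and the lowest control, Fbln2 differed 1.62-fold, Efemp2 1.90-fold, Fbn1 2.14-fold, Fbln5 2.27-fold and Vcan 2.61-fold.

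Some markers of fibroblasts, which make most of these proteins in tissue, moved with the members. The summed level of 9 fibroblast markers was 26.4 to 92.0 CPM in shControl, 127 to 134 CPM in shChd1, 7.67 to 10.7 CPM in shMap3k7 and 5.47 to 9.27 CPM in shDouble. Most of the sum in shChd1 was Col3a1 alone, at 91.0 and 87.2 CPM. In 4 of the 9, Pdgfra, Pdgfrb, Col3a1 and Twist2, every Map3k7-clone library lay below every other, as did 12.8% of all tested genes. Col1a1 overlapped, at 1.01 to 2.94 CPM in the clones and 2.02 to 12.7 CPM elsewhere, as did Col1a2, at 0 to 0.275 and 0.124 to 0.506 CPM. Pdgfra differed least of the 4, at 3.92 to 8.84 CPM in the clones and 10.0 to 12.0 CPM elsewhere. Dpt was at 0 in every library, Thy1 in every library but shControl replicate 1, and Fap stood at no more than 0.104 CPM. Between 2 and 3 of the 9 were at 0 in a shControl library, 2 in each shChd1 library and 3 to 5 in a Map3k7-clone library. The summed level of 7 epithelial markers was 3832 to 9661 CPM in shControl, 2039 to 2291 in shChd1, 10135 to 10311 in shMap3k7 and 9904 to 10483 in shDouble. Of these 4, Epcam, Cdh1, Krt8 and Krt18, were higher in every clone library than in any other (as were 12.1% of all tested genes), while Krt5 and Krt14 overlapped. The basal factor gene Trp63 was lower in every clone library (as were 12.8% of all tested genes), at 0.521 to 2.34 CPM against 5.17 to 20.9 CPM elsewhere. In bulk libraries fewer cells expressing a gene and less RNA per cell cannot be told apart, and the part of these markers in the members' levels was not tested. Smooth muscle markers summed to no more than 3.50 CPM and immune markers to no more than 4.11 CPM in any library. Endothelial markers summed to 38.7 CPM in shControl replicate 1, mainly Pecam1 (17.0 CPM) and Cdh5 (18.2 CPM), and to no more than 0.498 CPM in any other library. That library also held nearly all Dcn counts and the highest Bgn, Krt5 and Krt14 levels, and the part of other cell types in its Dcn and Bgn levels was not tested.

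The 2 Map3k7 clones differed from each other in Fbn1 and Fbln5, in opposite directions. This comparison was made over the 3 libraries of each clone, with the Chd1 hairpin as a term in the edgeR fit. Fbn1 averaged 1.10 ± 0.472 CPM (SD, n = 3) in clone 1 and 24.4 ± 6.87 CPM (SD, n = 3) in clone 7, higher in clone 7 by 4.44 ± 0.22 on the log2 scale (edgeR adjusted p = 2.3e-05). Fbln5 averaged 8.20 ± 4.59 CPM in clone 1 and 1.33 ± 0.813 CPM in clone 7, a log2 difference of -2.64 ± 0.42 (edgeR adjusted p = 0.00268). For both genes the libraries of the 2 clones did not overlap.

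Fbln2 (log2 -0.06 ± 0.07, adjusted p = 0.540), Efemp2 (-0.17 ± 0.07, adjusted p = 0.110) and Vcan (-0.13 ± 0.08, adjusted p = 0.233) did not pass the edgeR test between the clones. Thus 2 of the 5 members tested there were called, 1 each way, while 32.4% of 13030 genes were called, 14.1% higher and 18.3% lower in clone 7. Both calls held in all 10 fits run, with adjusted p from 4.1e-62 (DESeq2) to 2.4e-04 (edgeR without shMap3k7 replicate 2) for Fbn1 and from 7.1e-13 (edgeR without a filter on low counts) to 0.0135 (edgeR without shDouble replicate 1) for Fbln5. Bgn had 13 counts in clone 1 and 5 in clone 7, and Fbln1 7 and 0, too few to be tested. Each clone is 1 line, so these p-values compare a pair of lines over their own libraries.

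The Chd1 hairpins were examined without and with the Map3k7 hairpin. None of the 7 tested members was called in shChd1 against shControl, with edgeR adjusted p from 0.350 to 0.989, where 2.91% of all tested genes were called, 0.662% higher and 2.24% lower. The largest differences were those of Fbln5 (log2 1.25 ± 0.80, adjusted p = 0.350) and Fbln1 (1.21 ± 1.07, adjusted p = 0.509). Without shControl replicate 2, the parent line of both shChd1 libraries, Efemp2 (0.67, adjusted p = 0.00632) and Vcan (0.78, adjusted p = 0.0182) were called higher. Set against that parent itself, the same 2 genes were lower in both shChd1 libraries, at 0.880 and 0.909 of its CPM for Efemp2 and 0.864 and 0.813 for Vcan.

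When the line entered the fit as a replicate block, each Chd1-hairpin library was compared with its own line, and 0 members passed in shChd1, where 0.99% of all tested genes were called. Fbln5 then differed by 1.91 ± 0.40 (edgeR adjusted p = 0.0636). Its level was 4.42 and 3.11 times that of line 4 with constructs 96526 and 96528, 2.93 and 1.47 times that of clone 1, and 0.719 and 2.23 times that of clone 7. It was thus higher in 5 of 6 libraries, but construct 96526 in clone 7 went the other way, from 14 counts on either side. With 1 Chd1 effect over the 3 lines, an analysis added after the values were seen, Fbln5 differed by 1.53 ± 0.34 (edgeR adjusted p = 0.589). There 4 of 14346 genes, or 0.0279%, were called, none of them a member.

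**Figure D3:**
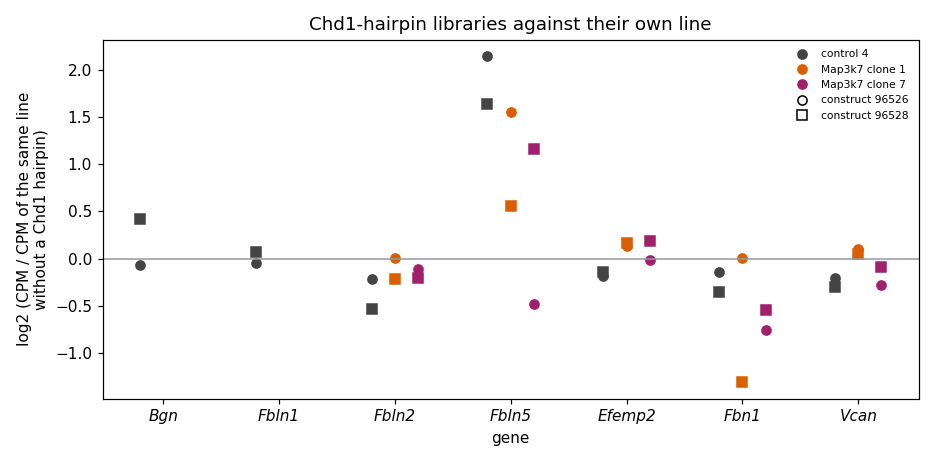
Log2 ratio of the CPM of each Chd1-hairpin library to that of its parent line with no Chd1 hairpin, for the 7 tested members. Colours are lines and marker shapes are hairpin constructs, and ratios are left out where the parent held 3 counts or fewer (Bgn and Fbln1 in both clones). Fbln5 lies above 0 in 5 of 6 libraries and Fbn1 lies below 0 in 5 of 6.

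The other members stayed nearer to their own line. Fbn1 stood at 0.403 to 1.00 of the parent's CPM and was lower in 5 of 6 libraries (pooled within-line log2 -0.43 ± 0.14, edgeR adjusted p = 0.935). Fbln2 stood at 0.692 to 1.00, Efemp2 at 0.880 to 1.14 and Vcan at 0.813 to 1.07 times the parent. Fbln1 in line 4 stood at 0.965 and 1.05 times the parent, and Bgn there stood at 0.957 and 1.33 times.

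In the Map3k7 clones, shDouble against shMap3k7, edgeR called 0 of the 7 members and 0 of 14346 genes (0%), with 115 genes at an unadjusted p under 0.05. DESeq2 also called 0 members, and edgeR with the line as a replicate block again called 0 of 14346 genes (0%). Chd1 itself, the target of the hairpin, was not called there (log2 -0.30 ± 0.10, edgeR unadjusted p = 0.00992). The absence of calls therefore does not show that the hairpin left the members unchanged. Fbln5 (1.05 ± 0.94), Fbn1 (-0.65 ± 1.18), Fbln2 (-0.13 ± 0.18), Efemp2 (0.12 ± 0.22) and Vcan (-0.05 ± 0.28) all stood at 1 after adjustment in edgeR. These values are from the fit by group, which leaves out the line, so the SEs of Fbn1 and Fbln5 include the difference between the clones. The difference between the Chd1 effects with and without the Map3k7 hairpin also gave 0 members and 0 of all genes (0%) in edgeR, with 1998 genes at an unadjusted p under 0.05 and 0 members by DESeq2. For that difference between the Chd1 effects a replicate block for the line gave calls of 0.0767% of genes and 0 members.

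A list of 80 related matrix genes that are not members was examined beside them, of which 51 were tested. It was chosen with earlier results of these data known, and genes are named by smallest p. Their counts and p-values against shControl are therefore a description. In shMap3k7 4 (7.84%) were called higher and 15 (29.4%) lower by edgeR, beside 4.86% and 7.08% of all tested genes. In shDouble 4 (7.84%) were called higher and 21 (41.2%) lower, beside 10.2% and 13.6%. The median log2 difference was -0.52 in shMap3k7, beside -0.01 over all tested genes, and -0.53 in shDouble, beside -0.00152. The shMap3k7 shares of all genes also apply to the smaller lists below. With only the 2 groups compared the first count was 1 higher and 5 lower, and with counts summed per line the counts were 2 and 7 in shMap3k7 and 3 and 8 in shDouble. Without shMap3k7 replicate 1 it was 1 and 5, and without shMap3k7 replicate 2 it was 3 and 7.

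Of 14 other leucine-rich proteoglycan genes only 3 were tested, and 1 fell in shMap3k7: Prelp, a collagen-binding proteoglycan, went from 24.6 ± 23.4 CPM (SD, n = 3) in shControl to 0.662 ± 0.293 CPM (SD, n = 2; edgeR adjusted p = 0.00994). Of 4 other fibulin and hemicentin genes 2 were tested, and Efemp1, fibulin-3, fell from 100.1 ± 40.5 to 24.4 ± 15.7 CPM (adjusted p = 0.0367). Of 19 elastic fibre and microfibril genes 11 were tested, and 5 fell and 0 rose. They included Emilin2, an elastin-interface glycoprotein, from 28.3 ± 9.03 to 1.02 ± 0.805 CPM (adjusted p = 6.5e-04). Adamtsl5 fell from 3.05 ± 0.319 to 0.311 ± 0.0721 CPM (adjusted p = 0.00398), with only 9 counts in its lowest group. Adamts10, a protease that binds fibrillin-1, fell from 21.3 ± 5.28 to 7.47 ± 0.110 CPM (adjusted p = 0.00250).

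Of 13 genes for hyaluronan and for versican's partners 8 were tested, with 1 higher and 2 lower. Cd44, a hyaluronan receptor, rose from 648 ± 126 to 1335 ± 248 CPM (adjusted p = 0.00544). Acan, the cartilage relative of versican, fell from 5.22 ± 4.49 to 0.141 ± 0.108 CPM (adjusted p = 0.0159), the latter from 4 counts in all. Tnfaip6, a hyaluronan-binding protein, fell from 12.5 ± 1.62 to 2.29 ± 1.77 CPM (adjusted p = 0.0290).

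Of 7 versican-cleaving protease genes 6 were tested, 1 higher and 1 lower. Adamts8 rose from 6.10 ± 1.04 to 21.8 ± 0.470 CPM (adjusted p = 4.3e-04), and Adamts9 fell from 19.2 ± 10.7 to 1.53 ± 0.223 CPM (adjusted p = 0.0157). Of 23 genes for chondroitin and dermatan sulfate synthesis 21 were tested, 2 higher and 5 lower. Chst11, a chondroitin 4-O-sulfotransferase, fell from 16.5 ± 8.72 to 0.666 ± 0.390 CPM (adjusted p = 0.00314). The chondroitin synthase gene Chsy1 fell from 45.7 ± 7.36 to 19.5 ± 0.371 CPM (adjusted p = 0.00154), and Dse, the epimerase that makes dermatan sulfate, fell from 102 ± 3.51 to 45.0 ± 8.27 CPM (adjusted p = 0.00192).

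In shChd1 1 of the 51 related genes was called, Tsku, with a log2 difference of -1.07 ± 0.24 (edgeR adjusted p = 0.0458). A fit with a replicate block for the line called 0. So did the fit by group without shControl replicate 1, without replicate 3 or without any 1 shDouble library. Without shControl replicate 2 that fit called 10. Between the Map3k7 clones 4 of 43 tested related genes were higher in clone 7 and 12 lower, 9.30% and 27.9% of them, beside 14.1% and 18.3% of all tested genes. Adamts5, a versican-cleaving protease, was lower in clone 7 by a log2 difference of -3.28 ± 0.12 (edgeR adjusted p = 4.5e-06), and Efemp1 by one of -1.31 ± 0.12 (adjusted p = 3.4e-04).

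**Figure D4:**
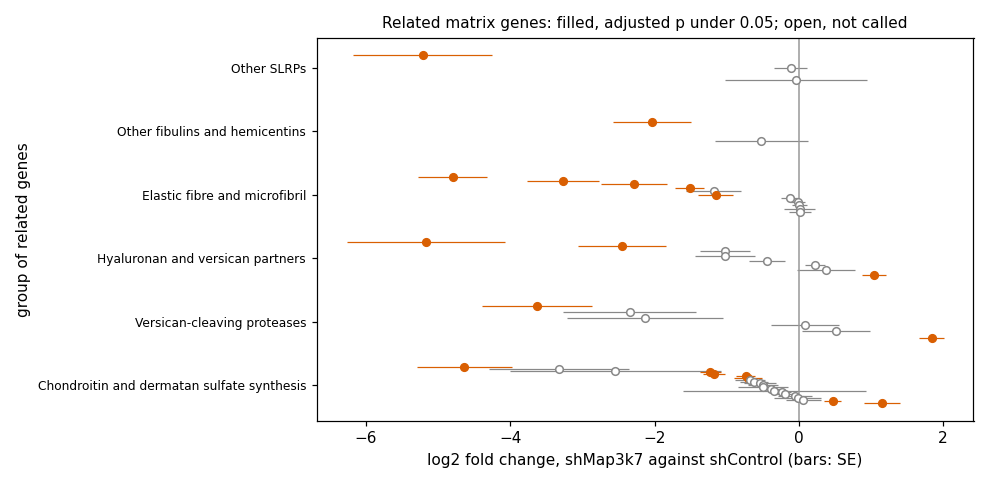
Log2 fold change of shMap3k7 against shControl for the 51 tested related genes, by group of genes, with SE bars. Filled points are called at an adjusted p under 0.05 and open points are not. Of the filled points 15 lie left of 0 and 4 right of it, where 7.08% of all tested genes were called lower and 4.86% higher.

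The members followed each other over the 11 libraries to unequal degrees, which is a description and rests mainly on the split by line. Pearson's r of log2 CPM was 0.981 between Efemp2 and Vcan and 0.972 between Fbln1 and Vcan, and lowest between Fbln5 and Fbn1, at 0.518. The 5 other genes whose log2 CPM was most like the members' median profile over the 11 libraries were Col3a1 (r = 0.991), F5 (0.990), Sall2 (0.984), Megf10 (0.983) and Iigp1 (0.983). Col3a1 stood at 1.21 to 91.0 CPM in the 5 libraries without a Map3k7 hairpin and at 0 to 0.0918 CPM in the clones, and F5 at 0.440 to 19.3 CPM and 0 CPM. Iigp1 was also near 0 in the clones (0.165 to 8.09 CPM and 0 to 0.0918 CPM). Sall2 overlapped, at 13.7 to 26.8 CPM without a Map3k7 hairpin and 11.5 to 14.2 CPM in the clones. In each library the median profile is the value of Vcan or of Fbln5, so likeness to it is not likeness to every member.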

How the data were processed

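The authors deposited a table of expected counts (estimated by RSEM, not normalized); per the submitters' processing notes they used Bowtie2 and RSEM 1.3.1 on GRCm38, and limma is also named. Which annotation and strand setting were used is not given in the sources. RSEM divides reads between similar or overlapping genes. The deposited normalized log2 table was not used.

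Counts were rounded and analysed in R 4.3.3 with edgeR 4.0.16: filterByExpr (minimum count 10, minimum total 15) kept 14346 genes, leaving out up to 0.117% of the counts of any library. With TMM factors, 4 group means were fitted to the 11 libraries together, tested by quasi-likelihood F-tests, and adjusted by Benjamini-Hochberg. SE is the fold change over the root of F. The scripts were tested on simulated data. Log2 CPM for likeness used a prior count of 2.

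Lines pair libraries by design: the clone 7 to clone 1 difference correlated at r = 0.571 across genes between shMap3k7 and shDouble. Alternatives were RLE factors, DESeq2 1.42.0, no filter, each library left out, only the groups compared, the line as a replicate block, and, added after seeing the data, sums per line. Named genes were the members, of each related group the 3 called in shMap3k7 with the smallest p and 2 in each other comparison (not all repeated here), and the 5 most alike genes of at least 5 CPM. The members and lists were chosen with earlier results of these data known. Coordinates, exon lengths and gene starts are from GENCODE M21 and RefSeq on GRCm38.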

Additional observations from a re-analysis of the deposited data

How the results depend on the processing

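Counts of called members are of 7 tested, with Dcn added where no filter is used. In shMap3k7 the count of 4 became 0 with only the 2 groups compared, 1 with counts summed per line, 0 to 5 over the fits without 1 library, and 6 with DESeq2 or without a filter. In shDouble against shControl the count of 6 became 1 with counts summed per line, 7 without a filter, and 5 to 6 without 1 library. In shChd1 the count of 0 was 0 to 2 without 1 library, the 2 arising without shControl replicate 2. Of related genes, the 19 called in shMap3k7 became 6 with only the 2 groups, 9 summed per line and 6 to 20 without 1 library, and the 25 in shDouble against shControl became 11 summed per line (22 to 27 without 1 library). The 1 in shChd1 became 3 with DESeq2, 2 without a filter, 0 with only the 2 groups, with the line as a replicate block or summed per line, and 0 to 10 without 1 library, 10 arising without shControl replicate 2. The 0 for the interaction became 1 with DESeq2 and 0 to 3 without 1 library. Summing leaves fewer samples; otherwise the cause was not tested.

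With the line as a replicate block, uncalled log2 differences in shChd1 changed sign for Bgn (0.20), Fbln2 (-0.36), Efemp2 (-0.16) and Vcan (-0.25), and so did the interaction for Fbln2 (0.23), Efemp2 (0.28) and Vcan (0.20). The block ended or made no call of a member. Without 1 library, uncalled differences that changed sign ran from -0.92 to 0.82 for Bgn, -0.12 to 0.32 for Fbln2 and -0.30 to 0.17 for Fbn1 in shChd1. They ran from -1.61 to 2.94 for Fbn1 and -0.093 to 0.012 for Vcan in shDouble against shMap3k7, from -1.03 to 1.27 for Fbln5 and -1.58 to 2.97 for Fbn1 in the interaction, and from -0.11 to 0.015 for Fbln2 between the clones. Of the other values of single members under another setting, 304 tested ones kept direction and side of the threshold and 2 became called. Of those only described, 187 moved by less than 1 SD between replicates and 4 by more, with no side of a threshold assessed. Depth limits Bgn, Dcn and Fbln1 in the Map3k7 clones, where a library held 10 counts at most.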
